A study of Homo sapiens with 4 samples.

Results

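The mRNAs of Pumilio, IGF2BP, Musashi and LIN28 proteins were examined in PAR-CLIPs of the RNA helicase DHX36. The 7 genes PUM2, IGF2BP1, IGF2BP2, IGF2BP3, MSI1, MSI2 and LIN28B were picked by gene symbol from the 26490 genes of the deposited table, which lists all 7. PAR-CLIP crosslinks a protein to RNA that carries 4-thiouridine, and a T-to-C conversion in the sequenced read marks the contact. HEK293 cells, a human embryonic kidney line, stably expressed a FLAG/HA-tagged transgene under a tetracycline-inducible promoter. One line carried wild-type DHX36 of isoform 2 (FH-DHX36) and the other carried isoform 1 with the mutation E335A, which removes helicase activity (FH-DHX36-E335A). The isoform and the mutation therefore differ together and cannot be told apart. Cells were labelled with 100 µM 4-thiouridine. Both lines received 500 ng per ml of tetracycline for 15 h and UV light of 365 nm for 5 min, and both still carry the endogenous DHX36 gene. The study made 2 biological replicates per line, but the table gives 1 value per gene and line. For its distribution of binding sites the paper used the intersection of the 2 replicates. Whether the deposited counts also keep only shared clusters, or pool the replicates, is not given in the sources used here. No spread between replicates and no test between the lines was therefore available. The table lists 8752127 crosslinked reads for FH-DHX36-E335A and 2160413 for FH-DHX36, a ratio of 4.05.

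DHX36 is a DEAH-box helicase that recognises and unwinds G-quadruplexes, stacked structures formed by runs of guanines. The proteins encoded by the 7 mRNAs bind RNA themselves. Pumilio proteins bind a short UGUA-containing element in 3'UTRs and recruit the deadenylation machinery. IGF2BP proteins carry KH and RRM domains and protect their target mRNAs from decay, Musashi proteins regulate translation in neural and hematopoietic progenitors, and LIN28B blocks the maturation of the let-7 microRNAs. The let-7 family in turn represses LIN28B and IGF2BP mRNAs.

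Positions are given on GRCh37, the same build as the hg19 of the authors, for the canonical transcript of GENCODE release 44. PUM2 is transcribed from chr2:20448498-20550605 (minus strand) with 21 exons, and its 3'UTR has 2848 nt. IGF2BP1 (chr17:47074747-47133507, plus strand, 15 exons) has the longest 3'UTR among them, 6701 nt. The 3'UTR of IGF2BP2 (chr3:185360918-185542830, minus strand, 16 exons) measures 2401 nt. That of IGF2BP3 (chr7:23349828-23510110, minus strand, 15 exons) measures 2153 nt. MSI1 (chr12:120779133-120806967, minus strand, 15 exons) has the shortest, 1797 nt. MSI2 (chr17:55333884-55762050, plus strand, 14 exons) has 5172 nt. LIN28B (chr6:105404982-105531207, plus strand) has 4 exons and a short coding sequence, 753 nt followed by 4549 nt of 3'UTR. The members thus ranged from percentile 55.4 to percentile 95.5 of 3'UTR length among 8609 genes that were bound by FH-DHX36-E335A and have a known 3'UTR.

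The 3'UTRs were searched on the sense strand for G-rich sequence, because DHX36 is known for binding it. A G-run match was at least 4 runs of at least 2 G with 1 to 7 nt of any base, G included, between them. IGF2BP1 held 20 matches, against a median of 8 in 782 3'UTRs of like length (a length ratio of at least 0.8, shorter over longer), and 12.7% of those held at least as many. MSI1 held 8 against a median of 2, and MSI2 held 8 against 6. IGF2BP2 and IGF2BP3 held 4 each, against a median of 3. LIN28B and PUM2 had few, with 2 against a median of 5 for LIN28B and 1 against 3 for PUM2. Of all 19063 canonical 3'UTRs, 64.7% held at least 1 match. In 3'UTRs of like length this share ran from 79.2% for MSI1 to 95.8% for IGF2BP1. The stricter form, with runs of at least 3 G, was found in the 3'UTRs of IGF2BP1, IGF2BP3, MSI1 and MSI2 and not in those of PUM2, IGF2BP2 and LIN28B, and 14.2% of all canonical 3'UTRs held it. In 3'UTRs of like length the share with a strict match ran from 19.7% for MSI1 to 28.3% for IGF2BP1. MSI2 had 3 strict matches, and 3.38% of 3'UTRs of like length had at least as many. The sites below were chosen as 1 strict match each for IGF2BP1, IGF2BP3 and MSI1, and the PUM2 match and 1 LIN28B match of the looser form for contrast, with runs of 2 or more G in capitals. The PUM2 match consists of only 2 uninterrupted runs.
IGF2BP1, chr17:47126892-47126916, plus strand: gtGGGaatccGGGacacctGGGccGGGct
IGF2BP3, chr7:23351730-23351746, minus strand: aaaaaaGGGtGGGGGaGGGaGGGaaagag
MSI1, chr12:120780020-120780047, minus strand: tGGGGGcaaaGGGcgtGGGaagagcaGGGc
LIN28B, chr6:105529612-105529634, plus strand: gaaGGGGtagcaGGGagaGGGGttGGtgt
PUM2, chr2:20451164-20451175, minus strand: gtatatttGGGGGGtGGGGGatgaatta

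The 5'UTRs differed as well. PUM2 had 7 of the looser G-run matches in a 5'UTR of 266 nt and MSI2 had 4 in 220 nt, while IGF2BP3, MSI1 and LIN28B had none. No background over other 5'UTRs was taken, so whether these numbers are unusual was not tested. The table does not place clusters within a region, so that none of these matches is tied to a binding site here.

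A let-7 site was searched as CTACCTC, the complement of the seed that the let-7 family shares (bases 2 to 8 of the microRNA). The mature sequences of 9 human family members in RefSeq carry this seed, of which let-7a-5p and miR-98-5p are shown with the seed in capitals, followed by 1 site for each mRNA that had one, with the match in capitals.
hsa-let-7a-5p: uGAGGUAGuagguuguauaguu
hsa-miR-98-5p: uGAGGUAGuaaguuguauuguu
IGF2BP1, chr17:47131075-47131081, plus strand: gctagtaaCTACCTCacagagcc
IGF2BP2, chr3:185362009-185362015, minus strand: agaagaagCTACCTCaggtgttt
IGF2BP3, chr7:23351415-23351421, minus strand: ttactcaaCTACCTCaggtattc
LIN28B, chr6:105526702-105526708, plus strand: tgcaaagtCTACCTCatgcaagt

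IGF2BP1 and LIN28B each held 4 let-7 sites in the 3'UTR, and IGF2BP2 and IGF2BP3 each held 1. LIN28B had 1 more in its CDS. Of 3'UTRs of like length, 0.512% held at least as many as IGF2BP1 and 0.186% at least as many as LIN28B. Any let-7 site was held by 9.73% of all canonical 3'UTRs, and by 11.4% (MSI1) to 32.5% (IGF2BP1) of those of like length. The 3'UTRs of PUM2, MSI1 and MSI2 held no let-7 site. The Pumilio site TGTANATA was distributed otherwise, with 3 sites in the 3'UTR of MSI2, 2 in that of PUM2, 1 each in those of MSI1 and IGF2BP2, and none in IGF2BP1, IGF2BP3 and LIN28B. Any Pumilio site was found in 25.8% of all canonical 3'UTRs. Among 3'UTRs of like length the share was higher, from 31.3% for the length of MSI1 to 69.1% for that of IGF2BP1. The PUM2 sites are shown since PUM2 is itself the protein known to bind this element.
PUM2, chr2:20450914-20450921, minus strand: tatagagaTGTATATAgaattata
PUM2, chr2:20450654-20450661, minus strand: agaaatatTGTATATActtacata

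All 7 mRNAs carried clusters in both PAR-CLIPs. Over the whole table, which includes genes not expressed in HEK293, the share with a cluster was 34.5% for FH-DHX36-E335A, 22.4% for FH-DHX36 and 21.4% for both. At least 2 clusters were listed for all 7 with FH-DHX36-E335A and for 5 of 7 with FH-DHX36, against 28.6% and 12.7% of the table. Of genes bound by FH-DHX36-E335A, 37.9% had no FH-DHX36 cluster, which was the case for none of the 7. The members were set with earlier results of these data known, and LIN28A, which has no cluster, is not among them. That all 7 were bound may therefore follow from the choice of members. With FH-DHX36-E335A the 7 mRNAs held 132 clusters and 14956 crosslinked reads. With FH-DHX36 they held 39 clusters and 5339 reads. IGF2BP1 alone took 33.7% of the members' reads with FH-DHX36-E335A against 80.3% with FH-DHX36. The median member had 2788 reads and 27 clusters with FH-DHX36-E335A, compared with 326 reads and 5 clusters for all genes with a cluster. With FH-DHX36 the median member had 156 reads and 3 clusters, compared with 121 and 2. At least 20 FH-DHX36-E335A clusters were listed on 4 of the 7, PUM2, IGF2BP1, MSI2 and LIN28B, a level reached by 4.91% of genes with a cluster. These 4 also have the longest canonical transcripts of the 7, from 5446 nt for LIN28B to 8796 nt for IGF2BP1, and cluster numbers are not scaled to length. With FH-DHX36, IGF2BP1 alone reached it, as did 0.506% of genes with a cluster.

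**Figure D1:**
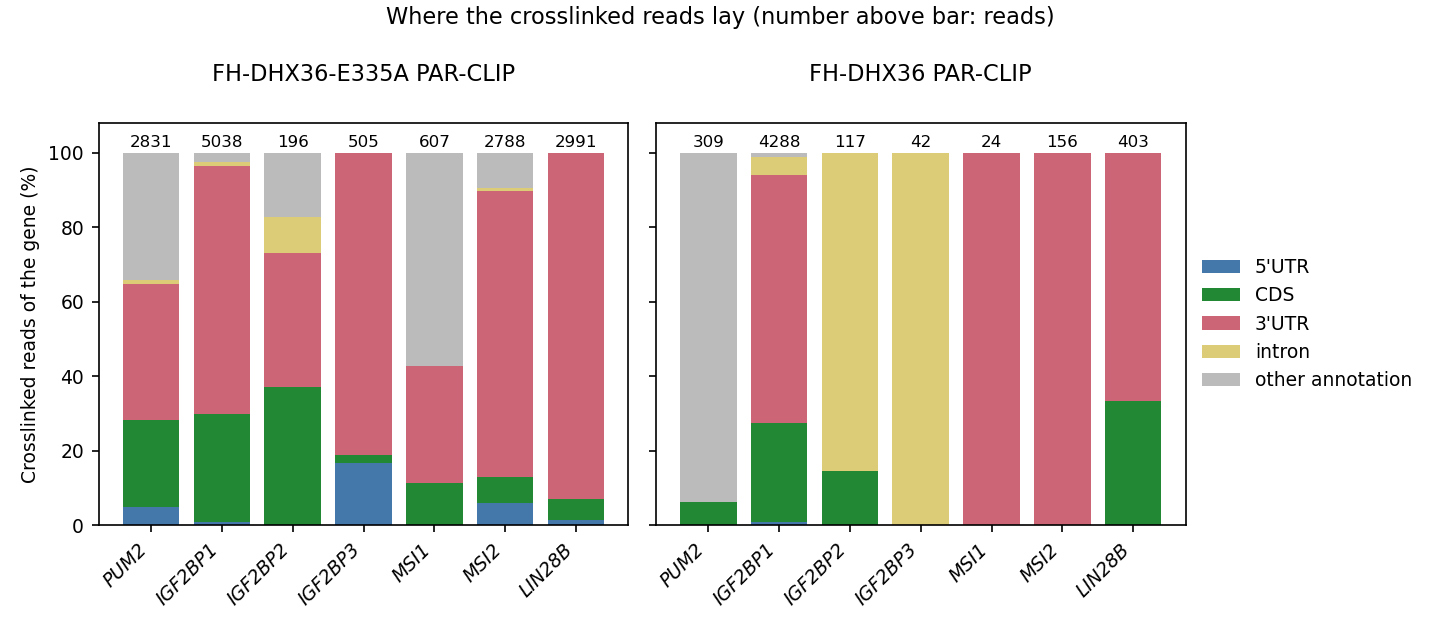
Share of each gene's crosslinked reads (%) in the 5'UTR, CDS, 3'UTR, introns and other annotation, for FH-DHX36-E335A (left) and FH-DHX36 (right), with the number of reads above each bar and 1 deposited value per bar. IGF2BP1 looks alike in both panels, while IGF2BP2 and IGF2BP3 are mostly intronic with FH-DHX36, on 117 and 42 reads.

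Recovered RNA abundance, the divisor of the authors' normalized reads, was similar among the 7 genes and ranged from 3.12 for LIN28B to 7.95 for IGF2BP2. Abundance is per transcript length, on the Cufflinks scale. Of the genes with a cluster, 2360 in the FH-DHX36-E335A PAR-CLIP and 1566 in the FH-DHX36 PAR-CLIP lay in the same range of abundance, with a median of 327 and 110 reads.

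PUM2, which represses mRNAs by recruiting deadenylases, had 27 FH-DHX36-E335A clusters with 2831 crosslinked reads. Of these reads 1034 lay in the 3'UTR (12 clusters), 662 in the CDS (8 clusters), 140 in the 5'UTR and 28 in an intron. A further 967 reads in 5 clusters had an annotation outside these 4 categories, which is 34.2% of the gene (95% Wilson interval from 32.4% to 35.9%, for counting error only, as for the other intervals given here). In the FH-DHX36 PAR-CLIP PUM2 had 3 clusters with 309 reads. Of those, 290 reads in 2 clusters had another annotation and 19 reads lay in 1 CDS cluster. No FH-DHX36 cluster was listed in its 3'UTR. At equal depth, the 1034 FH-DHX36-E335A reads in the 3'UTR would correspond to 255 FH-DHX36 reads. The table counts reads in called clusters alone, so that a listed 0 does not show that no read was there. Of the 7 mRNAs, PUM2, IGF2BP2 and IGF2BP3 had 3'UTR clusters in the FH-DHX36-E335A PAR-CLIP alone, 3 of 7 against 31.9% of genes bound in both.

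IGF2BP1, which binds and stabilizes mRNAs in the cytoplasm, was the most heavily crosslinked of the 7 mRNAs. It had 32 FH-DHX36-E335A clusters with 5038 reads and 21 FH-DHX36 clusters with 4288 reads. The position of IGF2BP1 among all genes by reads was 295 with FH-DHX36-E335A against 53 with FH-DHX36. Reads lay in the 3'UTR with nearly the same share in both PAR-CLIPs, 66.5% (65.2% to 67.8%) with FH-DHX36-E335A and 66.5% (65.0% to 67.9%) with FH-DHX36. The 3'UTR held 24 clusters with 3349 reads and 17 clusters with 2850 reads, respectively. Few clusters covered the CDS but they were deep, since 3 FH-DHX36-E335A clusters held 1465 reads and 1 FH-DHX36 cluster held 1138. Introns held 55 FH-DHX36-E335A reads and 218 FH-DHX36 reads.

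The paralogs of IGF2BP1 were crosslinked far less. IGF2BP2 had 7 FH-DHX36-E335A clusters with 196 reads and 3 FH-DHX36 clusters with 117 reads, although its recovered abundance of 7.95 was slightly above the 7.43 of IGF2BP1. IGF2BP1 thus had 25.7 times the reads of IGF2BP2 with FH-DHX36-E335A (counting interval from 22.3 to 29.8) and 36.6 times with FH-DHX36 (30.5 to 44.4). The canonical transcript measures 8796 nt for IGF2BP1 against 4283 nt for IGF2BP2, and reads, unlike abundance, are not scaled to length. Of the FH-DHX36 reads on IGF2BP2, 100 of 117 were intronic and 17 lay in the CDS. With FH-DHX36-E335A, 73 reads lay in the CDS, 70 in the 3'UTR and 19 in an intron. The CDS, by contrast, had a log2 ratio of FH-DHX36-E335A to FH-DHX36 of 0.08 (-0.69 to 0.94), with both depths taken into account.

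IGF2BP3 had 6 FH-DHX36-E335A clusters with 505 reads, with 410 in the 3'UTR, 84 in the 5'UTR and 11 in coding sequence. Its 5'UTR share of 16.6% (13.6% to 20.1%) was the highest of the 7. In the FH-DHX36 PAR-CLIP IGF2BP3 had 1 cluster with 42 reads, in an intron. No exonic FH-DHX36 cluster was listed. The order of the IGF2BP2 and IGF2BP3 mRNAs by reads differed between the PAR-CLIPs, because IGF2BP3 had 2.58 times the reads of IGF2BP2 with FH-DHX36-E335A (2.18 to 3.05) and 0.359 times with FH-DHX36 (0.246 to 0.515).

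Both Musashi mRNAs were bound, MSI2 more than MSI1. MSI2, a translational regulator of hematopoietic stem cells, had 27 FH-DHX36-E335A clusters with 2788 reads, with 2136 in 18 clusters of the 3'UTR, 194 in coding sequence and 167 in the 5'UTR. In the FH-DHX36 PAR-CLIP MSI2 had 2 clusters with 156 reads, all in the 3'UTR. MSI1, its paralog in neural progenitors, had 6 FH-DHX36-E335A clusters with 607 reads and 1 FH-DHX36 cluster with 24 reads. The single FH-DHX36 cluster lay in the 3'UTR. With FH-DHX36-E335A only 190 of the MSI1 reads lay in the 3'UTR and 69 in the CDS, while 348 reads in 2 clusters had another annotation, a share of 57.3% (53.4% to 61.2%). The MSI2 mRNA had 4.59 times the reads of MSI1 with FH-DHX36-E335A (4.21 to 5.02) at 1.60 times its abundance. The canonical transcript of MSI2 is also longer, 6379 nt against 2959 nt, and reads, unlike abundance, are not scaled to length.

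LIN28B, the inhibitor of let-7 maturation, had the lowest recovered abundance of the 7 and yet 27 FH-DHX36-E335A clusters with 2991 reads. The 3'UTR held 23 of these clusters and 2778 reads, a share of 92.9% (91.9% to 93.7%), the highest of the 7 in this PAR-CLIP. In the FH-DHX36 PAR-CLIP LIN28B had 8 clusters with 403 reads, 4 in the 3'UTR with 268 reads and 4 in the CDS with 135 reads. Its CDS share was 5.78% (5.00% to 6.68%) with FH-DHX36-E335A and 33.5% (29.1% to 38.2%) with FH-DHX36. For all reads of the table the CDS share was also lower with FH-DHX36-E335A, 16.9% against 28.4%. No intronic cluster and no cluster of other annotation was listed for LIN28B in either PAR-CLIP.

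Over all 7 mRNAs, the 3'UTR held 66.6% of FH-DHX36-E335A reads and 61.8% of FH-DHX36 reads. Without IGF2BP1 the shares were 66.7% and 42.6%. Over the whole table the share was likewise lower with FH-DHX36, 38.4% compared with 53.3%. A 3'UTR share above 50% was found for 4 of the 7 with FH-DHX36-E335A (IGF2BP1, IGF2BP3, MSI2 and LIN28B) and for 49.4% of all genes with a cluster. As a share of exonic reads it was found for 6 of 7, with MSI1 at 73.4% and PUM2 at 56.3% in addition. With FH-DHX36 it was found for 4 of 7 (IGF2BP1, MSI1, MSI2 and LIN28B) and for 35.9% of genes with a cluster. All 7 had a 3'UTR cluster and a CDS cluster with FH-DHX36-E335A, which held for 78.4% and 65.2% of genes with a cluster. A 5'UTR cluster was present on 5 of 7, PUM2, IGF2BP1, IGF2BP3, MSI2 and LIN28B, compared with 20.4%. Intronic clusters were listed on 4 of 7 (23.9%) and clusters of other annotation on 5 of 7 (45.4%). With FH-DHX36 a CDS cluster was found on 4 of 7 (46.9% of bound genes), a 3'UTR cluster on 4 (52.5%), an intronic cluster on 3 (24.3%) and one of other annotation on 2 (20.9%). IGF2BP1 was the only one of the 7 with a 5'UTR cluster there, compared with 18.6%.

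Per length, LIN28B had the densest 3'UTR binding with FH-DHX36-E335A, at 5.06 clusters per kb and 611 reads per kb. The medians over 8609 genes were 1.31 clusters per kb and 74.1 reads per kb. PUM2 followed with 4.21 clusters per kb, IGF2BP1 with 3.58 and MSI2 with 3.48. By reads per kb PUM2 was behind both, with 363 against 499.8 for IGF2BP1 and 413 for MSI2. By clusters per kb, LIN28B, PUM2, IGF2BP1 and MSI2 lay at percentiles from 78.4 to 89.7. By number of clusters of any annotation they lay at percentiles from 98.3 to 99.1 of genes with a cluster. The other 3 lay near the median of clusters per kb, with 1.67 for MSI1, 1.39 for IGF2BP3 and 1.25 for IGF2BP2. By reads per kb they lay further apart, with 190 for IGF2BP3, 106 for MSI1 and 29.2 for IGF2BP2. G-run matches per kb were fewest in PUM2 and LIN28B, at 0.351 and 0.440, and most frequent in MSI1, at 4.45, followed by IGF2BP1 at 2.98. With FH-DHX36, IGF2BP1 had 2.54 clusters per kb, at percentile 88.8 of 5588 genes, and no other member exceeded the 0.879 of LIN28B.

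**Figure D2:**
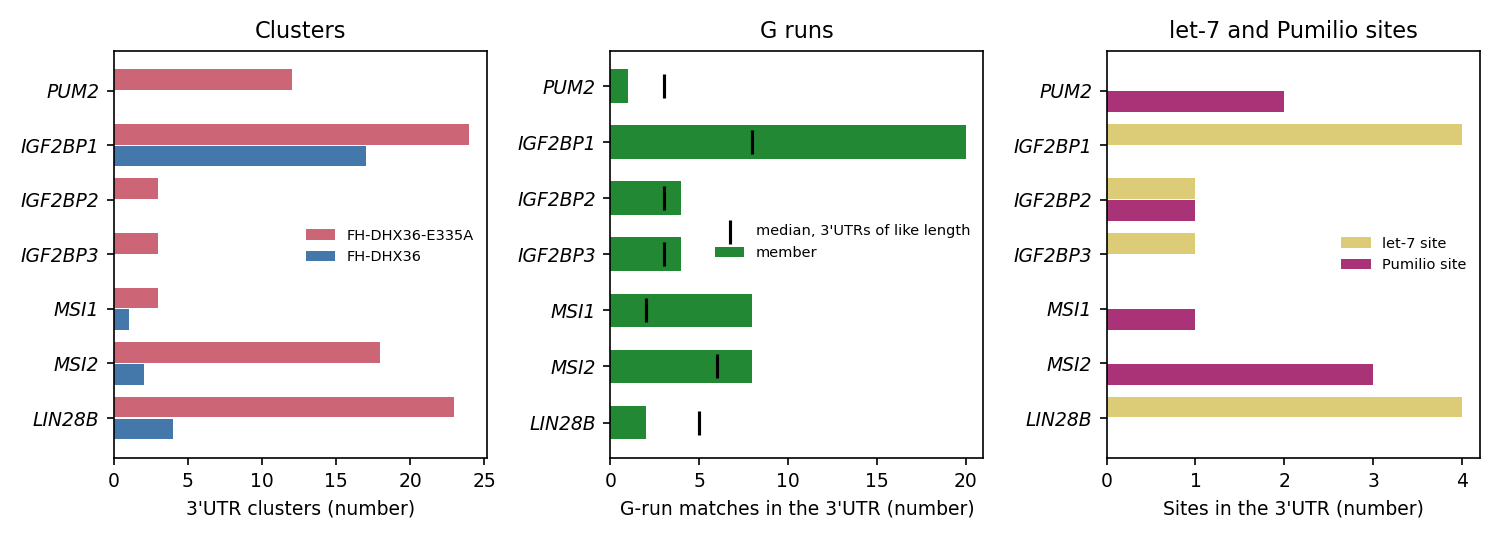
Number of 3'UTR clusters in each PAR-CLIP (left), of G-run matches in the canonical 3'UTR with the median of 3'UTRs of like length as a black mark (middle), and of let-7 and Pumilio sites (right) for each mRNA. IGF2BP1 has the most of both, 24 FH-DHX36-E335A clusters beside 20 G-run matches, and MSI2 has 18 beside 8. LIN28B has 23 clusters beside 2 matches in 4549 nt, while MSI1 has 3 clusters beside 8 matches in 1797 nt.

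The PAR-CLIPs were then compared by crosslinked reads scaled to the total of each PAR-CLIP (RPM, the scaling usual for read counts), with a counting interval on the log2 ratio of FH-DHX36-E335A to FH-DHX36. IGF2BP1 had 576 RPM with FH-DHX36-E335A against 1985 with FH-DHX36, a log2 ratio of -1.79 (-1.84 to -1.73), at percentile 13.0 of 5669 genes bound in both. IGF2BP2 was also lower with FH-DHX36-E335A, with 22.4 against 54.2 RPM, a log2 ratio of -1.27 (-1.61 to -0.93), but its exonic reads alone gave 1.05 (0.32 to 1.87), since its FH-DHX36 reads were mostly intronic. The other 5 had higher RPM with FH-DHX36-E335A, which held for 53.4% of genes, while the direction of IGF2BP1 and IGF2BP2 was seen for 46.6%. The median log2 ratio was 1.18 for the 7 members and 0.12 for all genes bound in both. These intervals compare the deposited totals of the lines and include no variation between replicates.

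Over all annotations MSI1 had the largest log2 ratio, 2.64 (2.06 to 3.30), on 24 FH-DHX36 reads. With exonic reads alone it was 1.41 (0.81 to 2.08), below the 1.98 of MSI2 and the 4.58 of PUM2, and by clusters it was 0.74, below the 1.91 of MSI2. MSI2 had 319 RPM with FH-DHX36-E335A against 72.2 with FH-DHX36, a log2 ratio of 2.14 (1.91 to 2.38) at percentile 90.7. For IGF2BP3 the log2 ratio was 1.57 (1.11 to 2.06), although its reads came from exons in one PAR-CLIP and from an intron in the other. PUM2 had a log2 ratio of 1.18 (1.01 to 1.35), and by region it was 3.10 (2.45 to 3.85) in the CDS and -0.28 (-0.47 to -0.09) for reads of other annotation. With exonic reads alone the PUM2 value was 4.58 (3.93 to 5.31), on 19 FH-DHX36 reads. LIN28B had a log2 ratio of 0.87 (0.72 to 1.03) by reads and of -0.092 by clusters, so that its direction depended on the measure. Its regions went opposite ways, with 1.36 (1.17 to 1.54) in the 3'UTR and -1.66 (-1.99 to -1.32) in the CDS. All reads of the table went the same ways. With FH-DHX36-E335A against FH-DHX36, 53.3% against 38.4% lay in the 3'UTR and 16.9% against 28.4% in the CDS. In IGF2BP1 the 3'UTR and the CDS had like log2 ratios, -1.79 and -1.65, and introns had -4.01 (-4.46 to -3.57). Introns held 4.48% of all FH-DHX36-E335A reads and 8.51% of all FH-DHX36 reads.

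**Figure D3:**
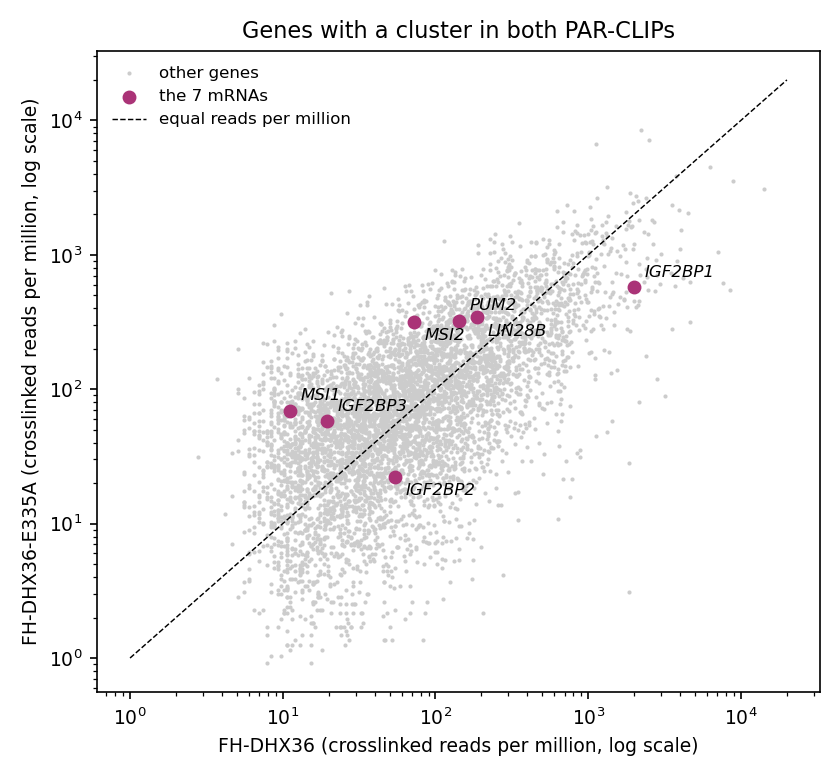
Crosslinked reads scaled as RPM with FH-DHX36 (x axis) and FH-DHX36-E335A (y axis), both on log scales, for the 5669 genes bound in both (grey) and the 7 mRNAs (purple), with a dashed line at equal values. IGF2BP1 and IGF2BP2 lie below the line and the other 5 above it.

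NXPM, the authors' normalized crosslinked reads, divides the scaled reads by mRNA abundance. With FH-DHX36-E335A the order was LIN28B at 110, IGF2BP1 at 77.5, PUM2 at 41.1, MSI2 at 40.2, MSI1 at 14.0, IGF2BP3 at 10.4 and IGF2BP2 at 2.82. The counting intervals of PUM2 (39.6 to 42.7) and MSI2 (38.7 to 41.7) overlapped, and those of the other neighbours in the order did not. LIN28B, at percentile 95.4 of genes with a cluster, was the only one of the 7 above 100, as were 5.18% of genes with a cluster. IGF2BP1, PUM2 and MSI2 also stood in the top 25%, at percentiles 93.1, 86.3 and 86.0. These and LIN28B have the longest transcripts of the 7, and the scaled reads are not divided by transcript length. With FH-DHX36 the order was led by IGF2BP1 at 267 and LIN28B at 59.8, at percentiles 97.9 and 88.7. PUM2 followed at 18.2, MSI2 at 9.12, IGF2BP2 at 6.81, IGF2BP3 at 3.51 and MSI1 at 2.25. In this PAR-CLIP 6.78% of genes with a cluster exceeded 100, and IGF2BP1 was the only one of the 7. In this order the intervals of MSI2 and IGF2BP2 overlapped (7.74 to 10.7 and 5.63 to 8.16), as did those of IGF2BP3 and MSI1 (2.53 to 4.74 and 1.44 to 3.35). The median NXPM of the 7 was 40.2 with FH-DHX36-E335A against 5.66 for genes with a cluster, and 9.12 with FH-DHX36 against 7.84.

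NXPM by region is scaled to all reads of that region, so that it gives the weight of a gene within a region and cannot be summed. In the 3'UTR, LIN28B had the highest FH-DHX36-E335A value, 191, followed by IGF2BP1 at 96.6 and MSI2 at 57.8. With FH-DHX36, IGF2BP1 reached 462 in the 3'UTR and LIN28B 103. In the CDS IGF2BP1 was highest in both PAR-CLIPs, at 133 with FH-DHX36-E335A against 250 with FH-DHX36. In the 5'UTR with FH-DHX36-E335A, MSI2 had 62.4 and PUM2 52.6, on 1 cluster each, with 4 and 7 G-run matches there. IGF2BP3 at 44.8 and LIN28B at 37.9 had no such match. IGF2BP1 and IGF2BP2 had 2 matches each, with 17.1 for IGF2BP1 and no 5'UTR cluster for IGF2BP2. Whether the values follow the number of matches was not tested. The mRNAs carried at most 2 clusters in the 5'UTR, and the matches were not scaled to 5'UTR length, which ranged from 73 nt for MSI1 to 381 nt for IGF2BP3.

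**Figure D4:**
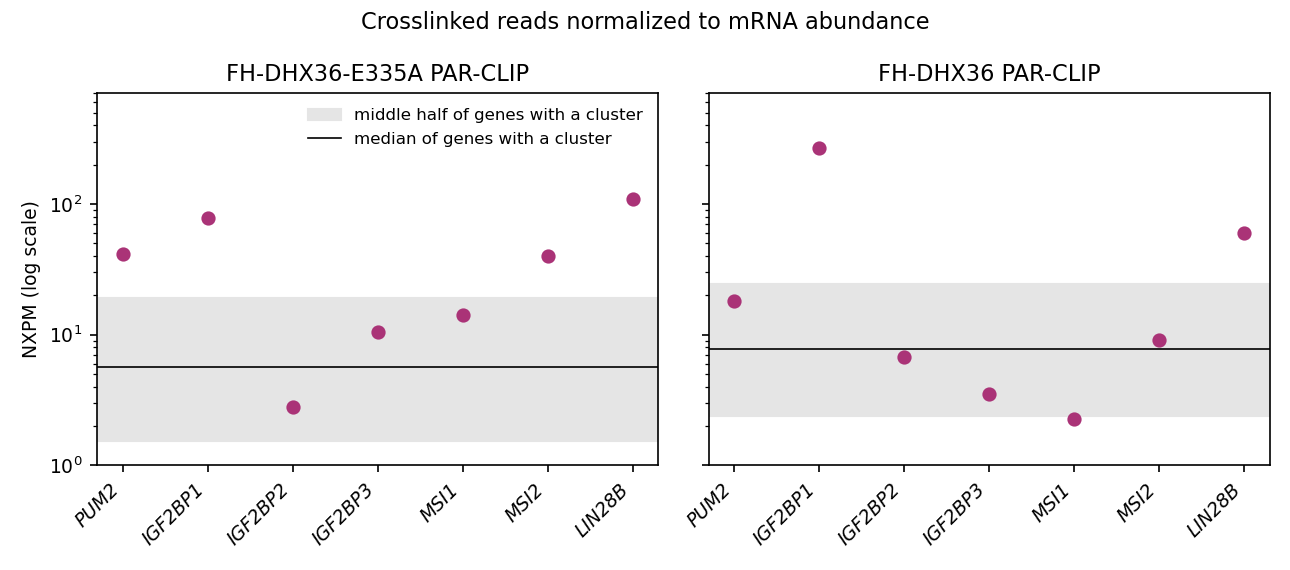
NXPM of each mRNA on a log scale in the FH-DHX36-E335A PAR-CLIP (left) and the FH-DHX36 PAR-CLIP (right), with the median (line) and the middle 50% (grey band) of all genes with a cluster. LIN28B, IGF2BP1, PUM2 and MSI2 lie above the band on the left, and only IGF2BP1 and LIN28B on the right.

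For context, 4 lists of related genes were taken, and genes with the most and the fewest FH-DHX36-E335A reads above 0 are given. The lists were set with earlier results of these data known. Of the whole table, which includes genes not expressed in HEK293, 34.5% had a cluster with FH-DHX36-E335A, 22.4% with FH-DHX36 and 21.4% with both. Of 6 paralogs and partners of the 7 proteins, 3 were bound in both PAR-CLIPs. KIAA0020, a more distant Pumilio-family gene, had 170 and 21 reads. LIN28A, NANOS2 and NANOS3 had no cluster. All 5 mRNAs of proteins found with IGF2BP1 in ribonucleoprotein particles were bound in both, from SYNCRIP with 13080 and 1782 reads down to YBX1 with 132 and 28, at a recovered abundance of 1077 for YBX1. Of 7 mRNAs of the let-7 pathway, 7 were bound with FH-DHX36-E335A against 4 with FH-DHX36. DGCR8, a subunit of the Microprocessor, had 2150 and 599 reads, and DROSHA, its nuclease, had 120 with FH-DHX36-E335A against 582 with FH-DHX36. Of these DROSHA reads, 39 and 569 were intronic. Of 8 mRNAs known as targets of these proteins, 8 and 5 were bound. CDKN1B, a Pumilio target that encodes an inhibitor of the cell cycle, had 3798 and 265 reads, and CD44 had 39 and none.

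The gene most like each member was sought among 3116 other genes with at least 100 reads in each PAR-CLIP, by Euclidean distance over 12 values (the share of reads in each of 5 annotation classes and the log10 of reads scaled to the PAR-CLIP's total, in both). MSI1 and IGF2BP3 had too few FH-DHX36 reads to enter. For LIN28B it was IRS2 at a distance of 0.114, against a median of 1.24 over those genes, and IRS2 had 97.9% of FH-DHX36-E335A reads and 64.3% of FH-DHX36 reads in the 3'UTR. For MSI2 it was PPIL1 at 0.112, for PUM2 HOXA9 at 0.235, for IGF2BP2 TLK1 at 0.274 and for IGF2BP1 C6orf106 at 0.288. HOXA9 shared with PUM2 a large share of reads of other annotation, 45.3% with FH-DHX36-E335A against 100% with FH-DHX36, and like PUM2 it had no FH-DHX36 reads in the 3'UTR.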

How the data were processed

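The authors mapped PAR-CLIP reads of both HEK293 lines to hg19, built clusters with PARalyzer as run by PARpipe, and assigned categories by GENCODE release 19. The submitters' processing notes name bcl2fastq 2.17.1. Other program versions are not given in the sources used here. Deposited by the authors were counts of clusters and of crosslinked reads per gene without normalization, and NXPM, a score of scaled reads over Cufflinks abundance. No column belonged to another sample, and 82 identifiers listed more than once were kept as listed except in the 3'UTR densities.

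Abundance was recovered from reads and NXPM with a constant of 0.001, and the values of both PAR-CLIPs matched within 0.01% for 100% of 5669 genes. Recovery, ratio intervals and motif search were tested on simulated data. Region lengths and motifs came from GENCODE release 44 on GRCh37, and all 114 matches within 1 exon were identical in the genome. Shares carry 95% Wilson intervals, ratios exact binomial intervals and NXPM exact Poisson intervals. All cover counting error only, since PCR copies are not independent molecules. Percentiles count genes with a lower value plus 50% of ties. Python 3.11.15, pandas 2.3.3 and scipy 1.17.1 were used.

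With 1 value per line no test was run. Planned fits over replicates were not possible. The 7 members, the 4 lists (the genes named are the highest and the lowest of each, by FH-DHX36-E335A reads) and the most alike genes were set with earlier results of these data known. HMGA2, TRIM71, DICER1 and ZCCHC6 were chosen after their values were seen. One listed gene and 1 site sequence are not reported here. Alternatives were other scalings, denominators, transcripts and thresholds.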

Additional observations from a re-analysis of the deposited data

How the results depend on the processing

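No paired analysis was possible because each cell line has a single set of values, and neither a replicate block nor leaving out a replicate could be run. Of 29 alternative counts over the 7 mRNAs, 28 stayed within 1.5 times the reported count. The exception was G-run matches in the 3'UTR, found in 7 mRNAs with runs of at least 2 G and in 4 with at least 3 G. Of 96 alternatives for single mRNAs, 72 stayed within the counting interval or on the same side of the top 25%, 22 moved and 2 changed sign. The log2 ratio of IGF2BP2 was 1.07 when exonic reads were scaled to exonic reads, because its FH-DHX36 reads were mostly intronic. That of LIN28B was -0.092 for clusters in place of reads, and the cause was not tested. The PUM2 log2 ratio rose to 4.59 for exonic reads, where 19 FH-DHX36 reads remain. Among genes of like abundance, a comparison added after seeing the data, 4 members stayed in the top 25% by FH-DHX36-E335A reads, whereas PUM2 joined the top 25% by FH-DHX36 reads (3 members in place of 2). With 24 and 42 FH-DHX36 reads, MSI1 and IGF2BP3 are the least precise members.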

Other observations

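Of the 7 mRNAs in the let-7 pathway list, 3 were bound in the FH-DHX36-E335A PAR-CLIP alone, while 37.9% of all genes bound by FH-DHX36-E335A had no FH-DHX36 cluster. The other 4 had a median log2 ratio of FH-DHX36-E335A to FH-DHX36 of -0.25, with 1 value above 0 and 3 below, namely DROSHA at -4.30, DIS3L2 at -0.33 and DGCR8 at -0.17. Introns held 569 of the 582 FH-DHX36 reads of DROSHA, and all reads of DIS3L2 in both PAR-CLIPs, 238 and 74. The value above 0, that of ZCCHC11, rested on 23 FH-DHX36 reads, all intronic. With FH-DHX36-E335A, introns held 39 of 120 DROSHA reads and 245 of 640 ZCCHC11 reads. The ratios of DROSHA and ZCCHC11 thus set reads largely outside introns against reads largely within them. They give no direction for exonic binding, and exonic reads alone were not compared for this list. The DIS3L2 ratio is of introns alone. Only for DGCR8 did introns hold a small part in both PAR-CLIPs, 137 of 2150 and 65 of 599 reads. The genes described next were chosen after their values were seen. HMGA2, a chromatin protein whose mRNA is a well-known let-7 target, had 19 FH-DHX36-E335A clusters with 1778 crosslinked reads and 2 FH-DHX36 clusters with 50 reads, a log2 ratio of 3.13. DICER1, the nuclease that makes mature microRNAs, had 586 FH-DHX36-E335A reads in 16 clusters, ZCCHC6, a terminal uridylyltransferase, had 171 reads in 5, and TRIM71, a let-7 target, had 210 reads in 4, each with no FH-DHX36 cluster. The NXPM of TRIM71 was 154 for FH-DHX36-E335A at a recovered abundance of 0.155, the lowest of the let-7 pathway list.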
